A study of Mus musculus with 21 samples.

Results

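The genes described here are 43 mouse genes of oxidative stress and antioxidant defence, comprising the Nrf2 switch and its targets, the glutathione and thioredoxin systems, the peroxidases and dismutases, the metallothioneins and the membrane subunits of the phagocyte oxidase. They were chosen by symbol. A probe set was used where the array annotation gives it 1 of these symbols alone, which left 81 of 45037 probe sets for 40 of the 43 genes, with 1 to 5 probe sets a gene. All 5 probe sets annotated to Prdx1 also carry another symbol, and none was annotated to Prdx5 or Prdx6, so these peroxiredoxins were not analysed here. RNA came from mice on a 129SvJ background and was read on Affymetrix whole-genome expression arrays for mouse; knockout and control differed in Cstb, the gene of the cysteine protease inhibitor cystatin B. The groups were Cstb-/- and wild type cerebellum at postnatal day 7 (P7, 4 arrays each), Cstb-/- and wild type cerebellum at postnatal day 30 (P30, 3 arrays each), and cerebellar granule cell cultures from Cstb-/- (3 arrays) and wild type (4 arrays) pups. The cultures came from P5 pups whose meninges were removed, were given 10 µM of the antimitotic AraC against glial proliferation, and were harvested after 2 days in vitro. The null allele was present in every cell of the knockout, so the arrays do not show which cell type a difference comes from. Fewer cells of a type and less RNA per cell cannot be told apart in these bulk samples.

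Nrf2, the protein of Nfe2l2, is a transcription factor that Keap1 holds in the cytoplasm and marks for degradation until oxidants or electrophiles modify Keap1. Freed Nrf2 binds antioxidant response elements and raises genes of glutathione synthesis, quinone reduction, haem breakdown and thioredoxin reduction. In the cerebellum glutathione and metallothioneins are held largely by astrocytes and Bergmann glia, whereas the phagocyte oxidase, which makes superoxide, belongs to microglia and other myeloid cells.

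The deposited log2 signals had been set to a median of 0 for each probe set within each of the 3 experiments. Levels are thus lost, and each value below is a log2 signal relative to the wild type mean of its experiment. For the same reason the labelled tissue cannot be checked against the levels of its markers. The log2 difference of Cstb, Cstb-/- minus wild type, was -3.10 and -2.31 at P7, -2.70 and -2.77 at P30 and -2.08 and -1.86 in the granule cells over its 2 probe sets, with no overlap between genotypes. At P7 Cstb-/- array 5, the only knockout labelled female there, and wild type array 3, the only wild type labelled male, had the widest spread of values. At P30 Cstb-/- array 1 is labelled female, against the methods, by which all P30 mice were male. In the granule cells the sex labels of Cstb-/- arrays 1 and 2 went against their sex-linked genes. Of the member probe sets, 45.7% had tied arrays in the granule cells, and the effect of these ties was not tested.

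Marker lists of several cell types were read beside the members. At P7 no marker passed the test, but all 10 measured choroid plexus markers were lower in Cstb-/- (median log2 difference -1.80, array means of the list between -2.46 and -0.42 in Cstb-/- and between -0.26 and 0.20 in wild type). Of 13 meningeal fibroblast markers 11 were lower at P7 (median -0.18, array means between -0.28 and -0.10 in Cstb-/- and between -0.03 and 0.05 in wild type). On the same arrays 11 of 12 oligodendrocyte markers were higher (median 0.49, array means between 0.35 and 0.85 in Cstb-/- and between -0.21 and 0.21 in wild type) and 8 of 10 granule neuron markers were higher (median 0.18). At P30, 10 of 15 microglial markers rose in Cstb-/- (median 0.90, array means between 0.90 and 1.05 in Cstb-/- and between -0.09 and 0.11 in wild type). Of the 12 astrocyte genes 11 were higher at P30 (median 0.21, array means between 0.30 and 0.37 in Cstb-/- and between -0.01 and 0.02 in wild type), and Gfap alone passed the test. All 10 choroid plexus markers were lower at P30 without passing (median -0.85), and array means overlapped (-2.08 to 0.95 in Cstb-/-, -0.85 to 0.96 in wild type). In the granule cell cultures 9 of 13 meningeal fibroblast markers rose (median 0.87, array means between 1.25 and 1.28 in Cstb-/- and between -0.03 and 0.04 in wild type), as did 4 of 12 astrocyte genes, whereas no microglial marker passed (median -0.14). Their part in the differences below was not tested.

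Antioxidant genes passed the test in cultured granule cells and in neither cerebellum. In the granule cells 9 of 81 probe sets, in 7 of 40 genes, passed a fold of 1.3 and an adjusted p of 0.01, all of them higher in Cstb-/-, against 2.54% of all probe sets (2.07% higher). The 7 genes were Gpx7, Gpx8, Prdx4, Gsta4, Gstm1, Mgst1 and Mt1. Taking 1 probe set a gene, 28 members were higher and 12 lower in Cstb-/- granule cells, with a median log2 difference of 0.26, against 0.00 over all 18193 genes. The genotypes did not overlap in 24 probe sets that were higher and 2 that were lower in Cstb-/-, where 22.8% of all probe sets did not overlap (13.4% higher, 9.33% lower). An unadjusted p under 0.05 was reached by 34 of 81 member probe sets (42%), against 31.6% of all. The count depended on single arrays. It fell to 1 probe set, that of Gpx7, without Cstb-/- array 1, to 2 without Cstb-/- array 3, to 3 without wild type array 5 and to 2 without wild type array 7 or 8, and it was 15 without Cstb-/- array 2, while the share of all probe sets that passed in these fits was 0.671% to 5.96%. The methods' t-test with correction over all probe sets called none of the members and 32 probe sets in all.

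In the cerebella no member passed the fold of 1.3 and the adjusted p of 0.05. At P7 0.00666% of all probe sets passed, 9 of the 81 member probe sets had an unadjusted p under 0.05 by limma (11.1%, against 9.45% of all), and the smallest adjusted p was 0.272. With 1 probe set a gene, 14 members were higher and 26 lower in Cstb-/-, with a median of -0.03 against 0.01 over all genes, and the genotypes did not overlap in 1 member probe set that was higher and 4 that were lower, or 6.17%, against 5.65% of all probe sets (2.8% higher, 2.84% lower). With the labelled sex as a covariate 7 member probe sets passed at P7, 1 higher and 6 lower in Cstb-/- (in Cat, Gpx8, Nfe2l2, Prdx4 and Sod1), together with 2.46% of all probe sets. In that fit Cstb-/- array 5 and wild type array 3 were the only arrays of their genotype and labelled sex. At P30 0.144% of all probe sets passed, again 9 member probe sets had an unadjusted p under 0.05 (11.1%, against 7.72% of all), and the smallest adjusted p was 0.0671. Here 29 members were higher and 11 lower in Cstb-/-, with a median of 0.04 against 0.00 over all genes, and the genotypes did not overlap in 14 probe sets that were higher and 5 that were lower, or 23.5%, against 12.5% of all probe sets (6.24% higher, 6.25% lower). The plot of all 40 members shows the 3 experiments side by side.

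**Figure D1:**
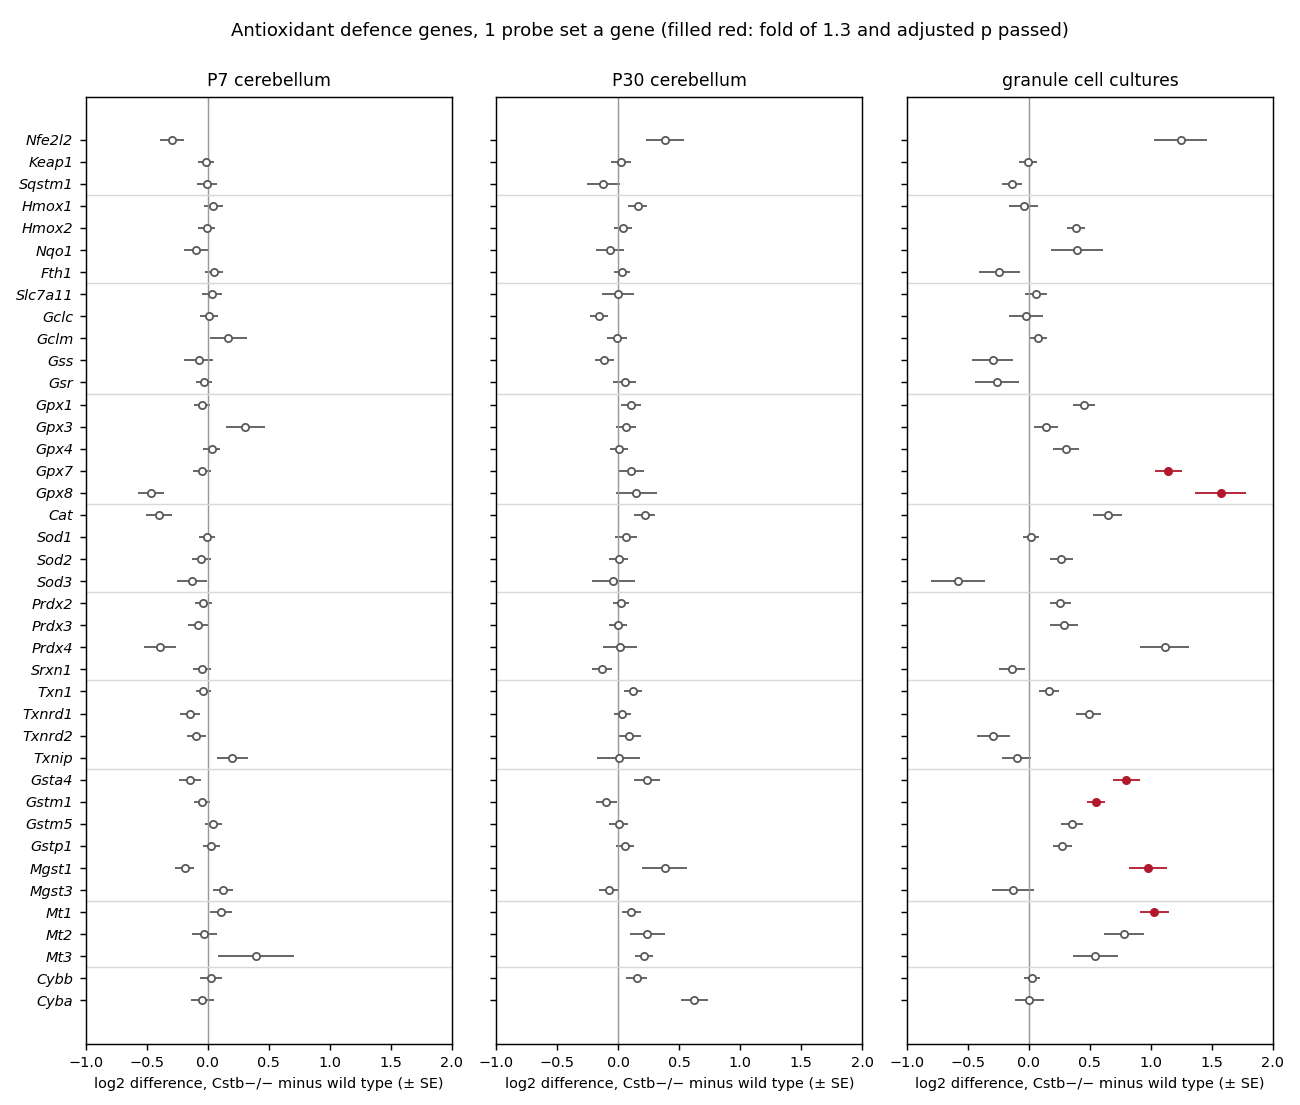
Log2 difference of Cstb-/- minus wild type with its standard error (horizontal axes) for the 40 measured members, 1 probe set a gene, in P7 cerebellum, P30 cerebellum and granule cell cultures; grey lines part the role groups and filled red points passed the fold and adjusted p thresholds. No point passed in the cerebella, and the passing points in the granule cells lie to the right of 0; Prdx4 is open because it passed through other probe sets than the one drawn.

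The Nrf2 switch was measured through Nfe2l2, its inhibitor Keap1 and Sqstm1, the autophagy receptor p62 that takes up Keap1. In granule cells Nfe2l2 lay at 1.42, 0.85 and 1.47 in Cstb-/- arrays 1 to 3, against 0.31, -0.50, 0.02 and 0.18 in wild type arrays 4, 5, 7 and 8. All 3 Cstb-/- arrays lay above all wild type arrays. The log2 difference of 1.25 (SE 0.22) had an adjusted p of 0.0122 and so missed the threshold for granule cells. At P30 Nfe2l2 lay at 0.34, 0.30 and 0.50 in Cstb-/- arrays 1 to 3, against -0.19, -0.23 and 0.41 in wild type arrays 1 to 3. Wild type array 3 lay among the Cstb-/- arrays, so the groups overlapped (log2 difference 0.38, SE 0.16, adjusted p = 0.627).

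At P7 the same Nfe2l2 probe set lay at -0.13, -0.17, -0.29 and -0.60 in Cstb-/- arrays 1, 2, 3 and 5, against -0.05, 0.01, 0.02 and 0.01 in wild type arrays 1 to 4. The groups did not overlap, and the difference of -0.30 (SE 0.10) had an adjusted p of 0.425. A further probe set of Nfe2l2 (1457117_at) differed by 0.02 in granule cells, 0.18 at P30 and 0.04 at P7, so the probe sets of this gene disagree. Keap1 and Sqstm1 did not pass in any experiment, with log2 differences between -0.17 and 0.35 for Keap1 and between -0.14 and 0.19 for Sqstm1 over their probe sets.

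The promoter of Nfe2l2 holds letters of an antioxidant response element, as does 1 of the 2 promoters of Mgst1, which rose in granule cells (values given with the transferases). Both are shown for this shared motif. The core searched for was TGACNNNGC on either strand of the 250 bases before the gene start, and it occurred in 10.2% of 32851 mouse promoters and in 8 of the 47 promoters of 37 members (17.0%). The promoters of Gpx7, Gpx8, Prdx4, Gstm1 and Mt1, which also rose in granule cells, did not hold it, and Gsta4 had no promoter entry. The core also lay before Gclm, Sod1, Txnrd1, Gstm5 and Mt2, none of which passed in granule cells, and before Prdx1, which was not analysed. The match is in capitals, 5′ to 3′ on the gene's strand, from RefSeq (GRCm38.p6). The Nfe2l2 stretch is chr2:75704864-75704913 on the minus strand, with the core at -240 to -232 from the start, and the Mgst1 stretch is chr6:138140447-138140496 on the plus strand, with the core at -56 to -48. In Mgst1 the core is read on the opposite strand.
Nfe2l2: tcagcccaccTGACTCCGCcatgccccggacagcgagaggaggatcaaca
Mgst1: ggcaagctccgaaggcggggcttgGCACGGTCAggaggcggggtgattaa

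Among the genes of haem, quinone and iron handling, which include textbook targets of Nrf2, none passed. Hmox1, the inducible haem oxygenase, lay at 0.23, 0.15 and 0.09 in Cstb-/- arrays 1 to 3 at P30, against -0.12, 0.08 and 0.04 in wild type arrays 1 to 3. The Cstb-/- arrays lay just above the wild type arrays, and the difference of 0.16 (SE 0.08) had an adjusted p of 0.698. Hmox1 differed by -0.04 in granule cells and 0.05 at P7. Its constitutive relative Hmox2 differed by 0.39 in granule cells (SE 0.07, adjusted p = 0.0178), with 0.45, 0.28 and 0.43 in Cstb-/- and between -0.07 and 0.04 in wild type. Nqo1, the quinone reductase most often read as an Nrf2 target, lay at 0.24, 0.45 and 0.49 in Cstb-/- granule cells and between -0.35 and 0.59 in wild type, where array 8 was above all Cstb-/- arrays (adjusted p = 0.236). For Fth1, the ferritin heavy chain, 1448771_a_at differed by 0.32 and 1427021_s_at by -0.24 in granule cells.

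Glutathione supply did not pass in any experiment. It starts with the cystine carrier Slc7a11, goes on with the catalytic and modifier subunits of glutamate cysteine ligase, Gclc and Gclm, and with glutathione synthetase Gss, and is kept reduced by glutathione reductase Gsr. In granule cells 2 of these 5 genes were higher and 3 lower in Cstb-/-, with a median of -0.02 and a range from -0.30 (Gss) to 0.08 (Gclm), taking 1 probe set a gene. Other probe sets differed there by 0.42 for Gclm and 0.26 for Gclc (adjusted p = 0.128 and 0.172). At P30 Gclc lay at -0.23, -0.09 and -0.17 in Cstb-/- arrays 1 to 3, against -0.01, -0.03 and 0.04 in wild type arrays 1 to 3, with no overlap. The difference was -0.16 (SE 0.07, adjusted p = 0.65), and the other Gclc probe set differed by -0.01. The Slc7a11 probe set 1443536_at was higher in Cstb-/- at P30, also without overlap (difference 0.34, adjusted p = 0.617). In this group the genotypes did not overlap at P30 in 2 probe sets that were higher and 2 that were lower (40%, against 12.5% of all probe sets). At P7 the 5 genes lay between -0.07 and 0.17 with 1 probe set a gene, and the other Slc7a11 probe set differed by -0.32 (adjusted p = 0.485).

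The glutathione peroxidases held the largest difference of all member probe sets in granule cells, that of Gpx8. Gpx8 and Gpx7 are peroxidases of the endoplasmic reticulum, where disulphide formation makes hydrogen peroxide. Gpx8 lay at 1.76, 1.11 and 1.84 in Cstb-/- arrays 1 to 3, against 0.42, -0.10, -0.21 and -0.11 in wild type arrays 4, 5, 7 and 8. Gpx7 lay at 1.00, 1.14 and 1.29 in Cstb-/- arrays and at 0.15, 0.08, -0.04 and -0.20 in wild type arrays. Every Cstb-/- array was above every wild type array in both genes. Both rose in granule cells, Gpx8 by 1.57 (SE 0.21, adjusted p = 0.00426) and Gpx7 by 1.14 (SE 0.11, adjusted p = 0.000933). Gpx7 passed with any single array left out (difference 1.07 to 1.22), whereas Gpx8 lost the call in 5 of 7 such fits, without Cstb-/- array 1 or 3 or wild type array 5, 7 or 8 (difference 1.44 to 1.80, adjusted p up to 0.0267).

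In P7 cerebella the difference of Gpx8 had the opposite sign. It lay at -0.18, -0.52, -0.52 and -0.65 in Cstb-/- arrays 1, 2, 3 and 5, against 0.02, -0.20, 0.13 and 0.05 in wild type arrays 1 to 4. The groups overlapped through Cstb-/- array 1 and wild type array 2. The difference of -0.47 (SE 0.11) was the one with the smallest p among the members at P7 and did not pass (adjusted p = 0.272). Within the arrays labelled male (3 Cstb-/-, 1 wild type) it was -0.53 and within those labelled female (1 Cstb-/-, 3 wild type) -0.61. At P30 Gpx8 differed by 0.14 (SE 0.17) and Gpx7 by 0.11 (SE 0.10), and Gpx7 differed by -0.05 at P7.

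The other glutathione peroxidases did not pass. Gpx3, the secreted enzyme, lay at 0.24, 0.13, 0.88 and -0.03 in Cstb-/- cerebella at P7 (arrays 1, 2, 3 and 5), against 0.09, 0.01, -0.06 and -0.05 in wild type, and so was far higher in array 3 than elsewhere (difference 0.31, SE 0.16, adjusted p = 0.571). Gpx1, the cytosolic enzyme, lay between 0.36 and 0.50 in Cstb-/- granule cells and between -0.15 and 0.14 in wild type (difference 0.45, adjusted p = 0.0227). Gpx4, which reduces lipid peroxides in membranes, differed by 0.31 and -0.01 in granule cells over its 2 probe sets.

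Catalase, which breaks down hydrogen peroxide in peroxisomes, had the same order of experiments as Gpx8. In granule cells Cat lay at 0.74, 0.49 and 0.70 in Cstb-/- arrays 1 to 3, against 0.24, -0.20, -0.02 and -0.01 in wild type, without overlap (difference 0.64, SE 0.12, adjusted p = 0.0135). At P30 it lay at 0.16, 0.12 and 0.37 in Cstb-/- and 0.01, 0.04 and -0.04 in wild type, also without overlap (difference 0.21, SE 0.08, adjusted p = 0.602). At P7 it lay at -0.41, -0.11, -0.43 and -0.66 in Cstb-/- arrays 1, 2, 3 and 5 and at -0.06, 0.07, 0.10 and -0.11 in wild type (difference -0.40, SE 0.11, adjusted p = 0.347), and the groups were only just apart, since the highest Cstb-/- array lay at -0.111 and the lowest wild type array at -0.105. Within the labelled sexes the P7 difference of Cat was -0.41 in males and -0.63 in females, that of Nfe2l2 -0.22 and -0.59, and that of Prdx4 -0.43 and -0.74. Of the 8 members described at P7, Gpx3 (0.47 in males, -0.04 in females) and Txnrd1 (0.003 in males, -0.33 in females) did not keep 1 sign within the sexes. The second Cat probe set followed, with 1.04 in granule cells, 0.18 at P30 and -0.25 at P7, and no Cat probe set passed the test.

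Of the superoxide dismutases, which turn superoxide into hydrogen peroxide, none passed. Sod1, the cytosolic enzyme, was read by 5 probe sets that disagreed. At P7 probe set 1451124_at lay at 0.27, 0.18, 0.41 and 1.49 in Cstb-/- arrays 1, 2, 3 and 5 and between -0.35 and 0.24 in wild type, so that its difference of 0.59 (adjusted p = 0.512) rested mostly on array 5, whereas 1440222_at differed by -0.35 and the other 3 by -0.02 to 0.10. The mitochondrial Sod2 differed by -0.15 to 0.33 in granule cells over 4 probe sets. Sod3, the extracellular enzyme, was the lowest member there with 1 probe set a gene, at -0.58 (SE 0.22, adjusted p = 0.119), with -0.75, -0.23 and -0.75 in Cstb-/- arrays and -0.26, 0.57, -0.26 and -0.06 in wild type arrays, which overlapped.

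Among the peroxiredoxins measured, Prdx4 is the one that works in the endoplasmic reticulum, and it was the only one to pass. In granule cells its probe set 1416167_at lay at 0.80, 0.69 and 0.84 in Cstb-/- arrays 1 to 3, against 0.13, 0.01, -0.03 and -0.11 in wild type arrays 4, 5, 7 and 8. The Cstb-/- arrays lay far above the wild type arrays, and the probe set rose by 0.78 (SE 0.08, adjusted p = 0.00166). Probe set 1435731_x_at rose by 0.54 (SE 0.08, adjusted p = 0.00559), and 1416166_a_at, which lay at 1.36, 0.93 and 1.05 in Cstb-/- and 0.26, -0.57, 0.17 and 0.14 in wild type, differed by 1.11 (SE 0.20) with an adjusted p of 0.0143. The remaining probe set, 1431269_at, differed by 0.12. The call of 1416167_at was lost without Cstb-/- array 1 or 3 or wild type array 7, and that of 1435731_x_at also without wild type array 5 or 8.

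At P7 Prdx4 (1416166_a_at) lay at -0.29, -0.20, -0.30 and -0.79 in Cstb-/- arrays 1, 2, 3 and 5, against -0.15, 0.14, 0.16 and -0.15 in wild type arrays 1 to 4. All Cstb-/- arrays lay below all wild type arrays, with array 5 lowest. The difference was -0.40 (SE 0.13, adjusted p = 0.427), and -0.06, 0.06 and -0.19 over the other 3 probe sets. At P30 the 4 probe sets differed by 0.01 to 0.07. Prdx2 in the cytosol and Prdx3 in mitochondria differed by 0.08 to 0.28 in granule cells, and sulfiredoxin Srxn1, which repairs overoxidized peroxiredoxins, by -0.14 to 0.21.

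The thioredoxin system did not pass. Thioredoxin reductase Txnrd1 differed by 0.49 in granule cells (SE 0.10, adjusted p = 0.0222), with 0.51, 0.36 and 0.60 in Cstb-/- and between -0.17 and 0.16 in wild type, and by 0.25 and 0.06 in its other probe sets. At P7 the same probe set lay at -0.11, -0.09, -0.11 and -0.29 in Cstb-/- arrays 1, 2, 3 and 5 and at -0.05, 0.17, -0.10 and -0.02 in wild type (difference -0.15, SE 0.08, adjusted p = 0.583), and the groups overlapped. Thioredoxin Txn1 gave opposite signs in granule cells, 0.16 with 1416119_at and -0.83 with 1456734_at (adjusted p = 0.0543), where Cstb-/- arrays lay at -1.21, -0.18 and -1.08 and wild type arrays between -0.12 and 0.14. The thioredoxin inhibitor Txnip differed by 0.35 at P7 (1415997_at, adjusted p = 0.484), by 0.04 at P30 and by -0.17 in granule cells.

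Glutathione transferases join glutathione to electrophiles, and 3 of the 6 measured rose in granule cells. Gsta4, which takes up the lipid peroxidation product 4-hydroxynonenal, lay at 0.82, 0.70 and 0.87 in Cstb-/- arrays 1 to 3, against 0.22, -0.23, 0.01 and 0.01 in wild type arrays, and rose by 0.80 (SE 0.11, adjusted p = 0.00489). The membrane-bound Mgst1 lay at 0.90, 0.91 and 1.11 in Cstb-/- and 0.41, -0.22, -0.23 and 0.05 in wild type, and rose by 0.97 (SE 0.16, adjusted p = 0.00923). The cytosolic Gstm1 lay at 0.55, 0.61 and 0.50 in Cstb-/- and 0.03, 0.07, -0.10 and 0.00 in wild type, and rose by 0.55 (1416416_x_at, SE 0.07, adjusted p = 0.00423). In none of these probe sets did the genotypes overlap. With 1 array left out, Gsta4 lost the call in 4 of 7 fits, Mgst1 in 6 and Gstm1 (1416416_x_at) in 6, the arrays being Cstb-/- array 1 and 3 and wild type arrays 7 and 8 for all of them, wild type array 5 for Mgst1 and Gstm1, Cstb-/- array 2 for Mgst1 and wild type array 4 for Gstm1. Another Gstm1 probe set, 1448330_at, rose by 0.66 (adjusted p = 0.00454, lost without Cstb-/- array 1 or wild type array 5, 7 or 8), whereas 2 more differed by 0.03 and 0.05, and the second Mgst1 probe set differed by -0.04. Gstm1 belongs to a family of closely similar genes, so its probe sets may also read its relatives.

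Gstm5 and Gstp1 differed by 0.36 and 0.27 in granule cells (adjusted p = 0.0422 and 0.0581) and did not pass, and the second microsomal enzyme Mgst3 differed by -0.13 and -0.38 over its probe sets. At P30 Mgst1 lay at 0.38, 0.29 and 0.47 in Cstb-/- arrays 1 to 3 and at -0.26, -0.24 and 0.50 in wild type arrays 1 to 3. As for Nfe2l2, wild type array 3 was as high as the Cstb-/- arrays, and the difference of 0.38 (SE 0.18) did not pass (adjusted p = 0.673). The second Mgst1 probe set differed by 0.07 at P30. Without wild type array 3 the Mgst1 probe set 1415897_a_at passed, as did 0.167% of all probe sets. Gsta4 had the same layout at P30, with 0.21, 0.36 and 0.14 in Cstb-/- against -0.17, -0.05 and 0.22 in wild type (difference 0.24, SE 0.11, adjusted p = 0.658).

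At P7 Mgst1 lay at -0.15, -0.28, -0.06 and -0.27 in Cstb-/- arrays 1, 2, 3 and 5, against -0.04, -0.02, 0.15 and -0.09 in wild type arrays 1 to 4 (difference -0.19, SE 0.08, adjusted p = 0.508). The second Mgst1 probe set differed by 0.03. Gsta4 lay at 0.05, -0.28, -0.09 and -0.27 in Cstb-/- and at 0.01, -0.09, 0.14 and -0.06 in wild type (difference -0.15, SE 0.09, adjusted p = 0.623). Both genes overlapped between the genotypes.

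**Figure D2:**
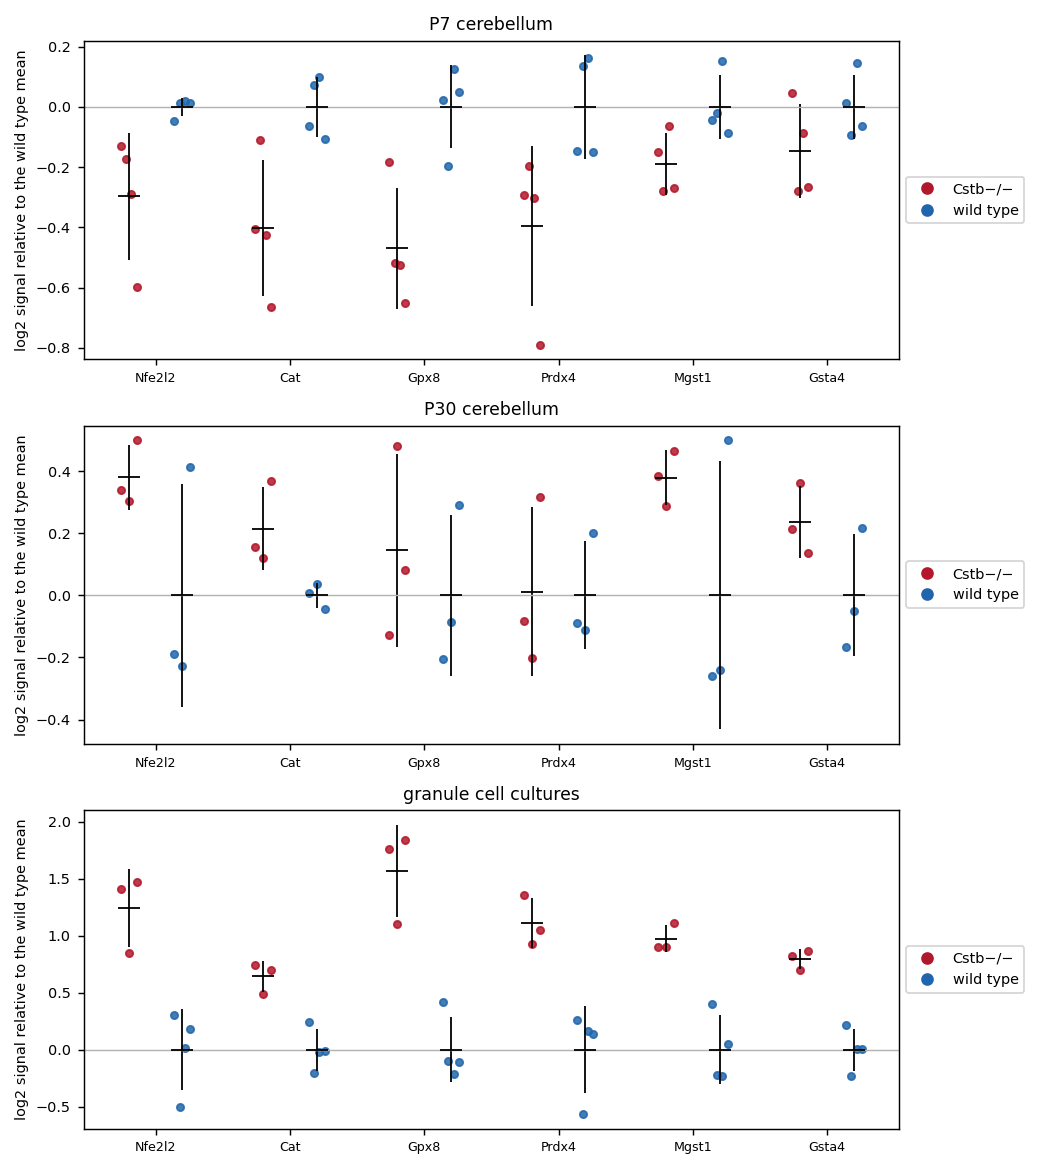
Log2 signal relative to the wild type mean (vertical axes) of Nfe2l2, Cat, Gpx8, Prdx4, Mgst1 and Gsta4 on each array, Cstb-/- in red left of wild type in blue, with the mean and SD as bars, in P7 cerebellum, P30 cerebellum and granule cells (vertical scales differ). In the probe sets drawn, the Cstb-/- means lie below 0 at P7 and above 0 in granule cells for all 6 genes. No P7 difference passed. The 6 are among the members picked by smallest p at P7, so this is no further support. Of the picks not drawn, Txnrd1 had these signs and Gpx3 was higher at P7 (0.31). Of the other probe sets, Cat 1416430_at and Prdx4 1416167_at and 1435731_x_at had these signs. Nfe2l2 1457117_at (0.04 at P7), Mgst1 1415898_at (0.03) and Prdx4 1431269_at (0.06) did not. Wild type array 3 is the high wild type point of Nfe2l2, Mgst1 and Gsta4 at P30.

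**Figure D3:**
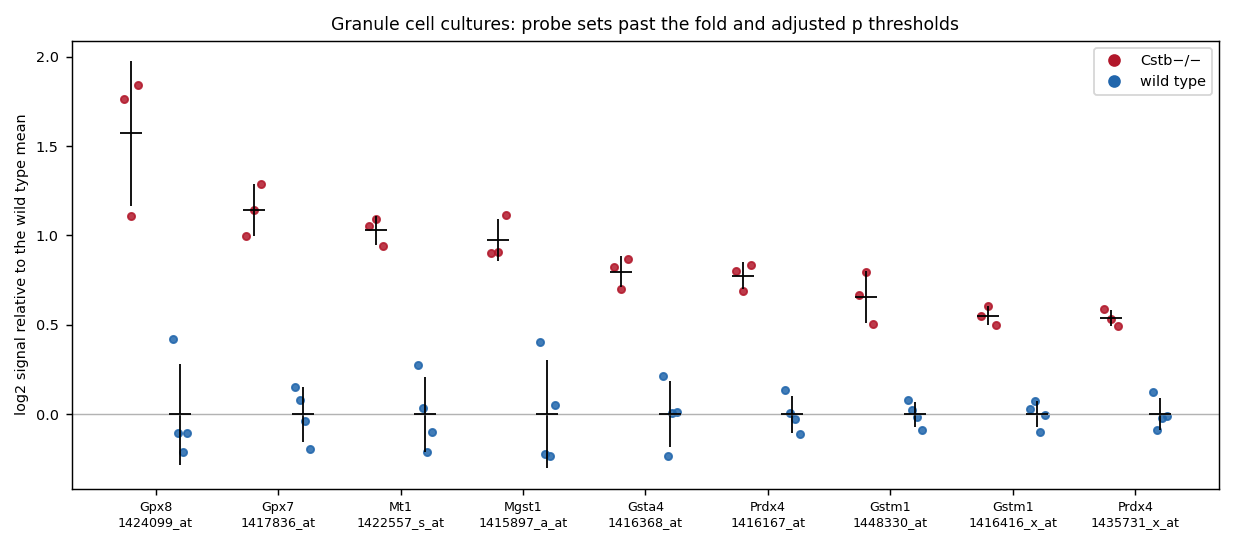
Log2 signal relative to the wild type mean (vertical axis) on each granule cell array for the 9 member probe sets that passed, Cstb-/- in red left of wild type in blue, with the mean and SD as bars. In each of the 9 the lowest Cstb-/- array lies above the highest wild type array, with Gpx8 at 1.11 to 1.84 in Cstb-/- and -0.21 to 0.42 in wild type. Since the 9 were drawn for passing on these arrays, this is no further support, and 22.8% of all probe sets do not overlap there.

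The metallothioneins are small cysteine-rich proteins that bind zinc and copper and scavenge radicals. Mt1 and Mt2 are induced by metals, glucocorticoids and oxidants, and Mt3 is the brain form. In granule cells Mt1 (1422557_s_at) lay at 1.05, 1.09 and 0.94 in Cstb-/- arrays 1 to 3, against 0.28, 0.03, -0.21 and -0.10 in wild type arrays, and rose by 1.03 (SE 0.12, adjusted p = 0.00227), a call that was lost without Cstb-/- array 1 or 3 or wild type array 5 or 8. The second Mt1 probe set, 1451612_at, lay at 0.20, 0.10 and 0.10 in Cstb-/- and between -0.12 and 0.12 in wild type and differed by 0.13, so the probe sets of Mt1 disagree. Mt2 lay at 0.79, 0.75 and 0.80 in Cstb-/- and at 0.33, 0.08, -0.44 and 0.03 in wild type, without overlap, and its difference of 0.78 (SE 0.16) had an adjusted p of 0.0224. Mt3 differed by 0.55 with overlap (adjusted p = 0.089).

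At P30 Mt3 lay at 0.11, 0.25 and 0.26 in Cstb-/- arrays 1 to 3, against -0.03, 0.03 and 0.00 in wild type arrays, without overlap (difference 0.21, SE 0.07, adjusted p = 0.555). Mt1 and Mt2 differed by 0.11 and 0.24 there. At P7 the Mt3 value of wild type array 3 was -1.22, against 0.31 to 0.46 in the other 3 wild type arrays and 0.31 to 0.50 in Cstb-/-, so the difference of 0.39 (SE 0.31) came with that array.

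The region before Mt1 and Mt2 is shown because both genes lay high together in granule cells and are neighbours on chromosome 8, and short stretches of Gpx7 and Prdx4 are shown for the same motif. The metal response element core, the site of the metal-sensing factor MTF-1, was searched as TGCACNC or TGCGCNC on both strands of the 250 bases before the RefSeq start. It was found in 21.4% of all promoters and in 11 of the 47 member promoters (23.4%). Other members that held it were Gclm, Srxn1, Txnrd2, Txnip, Gstm5 and Gstm1, of which only Gstm1 passed in granule cells. Gpx8 and Mgst1 passed there without holding it, and Gsta4 had no promoter entry. Matches are in capitals. The Mt1 stretch is chr8:94178939-94179088 and the Mt2 stretch chr8:94172468-94172617, both on the plus strand and ending at the base before the start, so letters past the annotated start were not searched. The Gpx7 stretch is chr4:108406894-108406943 (minus strand, match at -210 to -204 from the start) and the Prdx4 stretch chrX:155338491-155338540 (minus strand, match at -58 to -52). The Mt2 stretch also holds the antioxidant core at -79 to -71, left in lower case. A further metal match of Mt2, at -223 to -217, lies before the printed stretch.
Mt1: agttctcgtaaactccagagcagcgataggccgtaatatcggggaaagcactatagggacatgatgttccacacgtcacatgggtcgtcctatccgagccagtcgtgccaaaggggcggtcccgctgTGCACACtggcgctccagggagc
Mt2: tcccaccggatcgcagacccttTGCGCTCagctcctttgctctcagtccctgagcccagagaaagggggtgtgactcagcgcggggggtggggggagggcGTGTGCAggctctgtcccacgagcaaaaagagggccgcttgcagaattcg
Gpx7: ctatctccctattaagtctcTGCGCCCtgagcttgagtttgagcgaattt
Prdx4: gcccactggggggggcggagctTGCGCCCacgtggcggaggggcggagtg

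**Figure D4:**
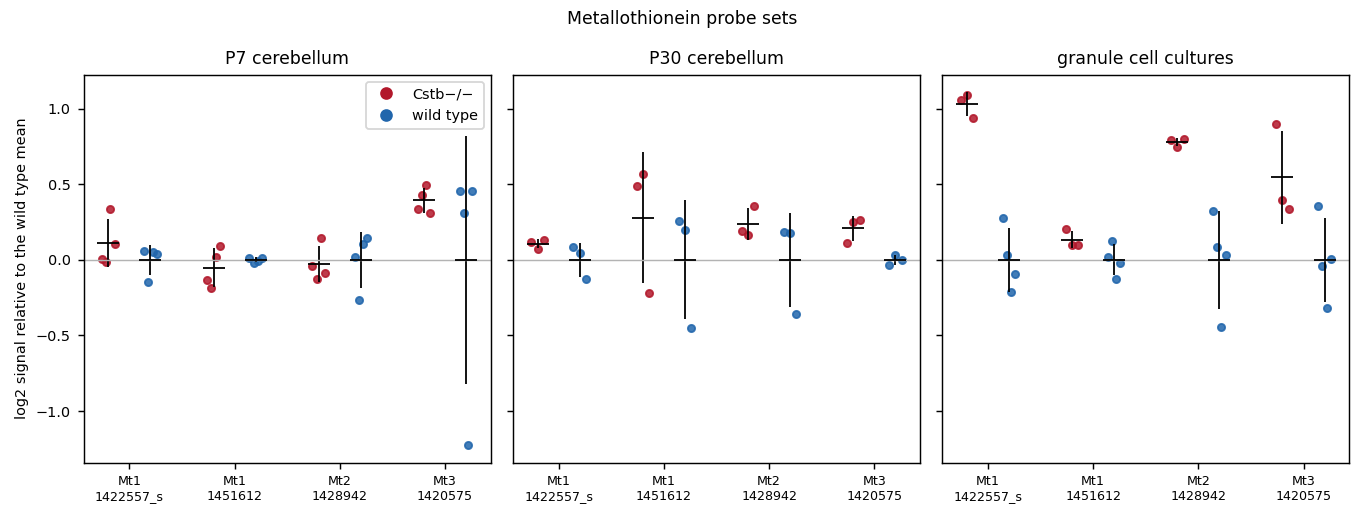
Log2 signal relative to the wild type mean (vertical axis) of the 4 metallothionein probe sets on each array in the 3 experiments, Cstb-/- in red left of wild type in blue, with the mean and SD as bars. In granule cells the Cstb-/- arrays of Mt1 (1422557_s_at) and Mt2 lie above all wild type arrays, and at P7 the SD of wild type Mt3 comes from 1 array at -1.22.

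The phagocyte oxidase was the group that stood out at P30. Cybb encodes gp91phox, the catalytic subunit that passes electrons to oxygen, and Cyba its partner p22phox. Cyba lay at 0.77, 0.60 and 0.49 in Cstb-/- cerebella (arrays 1 to 3), against -0.13, -0.09 and 0.22 in wild type cerebella. The 3 Cstb-/- arrays lay above all wild type arrays, and the difference of 0.62 (SE 0.11) had an adjusted p of 0.107. Cybb was added after its values were seen. Its probe set 1436778_at lay at 1.12, 0.59 and 0.93 in Cstb-/- against 0.07, 0.12 and -0.19 in wild type, a difference of 0.88 (SE 0.14, adjusted p = 0.0671), which was the smallest adjusted p of any member at P30. It passed without Cstb-/- array 2, as did 0.169% of all probe sets.

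Cybb probe set 1436779_at lay at 0.64, 0.67 and 0.42 in Cstb-/- and -0.04, 0.15 and -0.12 in wild type (difference 0.58, SE 0.10, adjusted p = 0.0921). The third, 1422978_at, lay at 0.11, 0.19 and 0.16 in Cstb-/- and 0.08, 0.09 and -0.16 in wild type (difference 0.15, SE 0.09, adjusted p = 0.726). In all 4 oxidase probe sets the genotypes did not overlap at P30, as in 12.5% of all probe sets. None passed in the fit of the P30 arrays alone, and 3 of the 4 passed with array weights, in 1 fit over all 6 groups, and with the methods' t-test corrected over only those probe sets that reached the fold, settings under which 0.502%, 0.238% and 0.466% of all probe sets passed. The microglial marker list was also higher in Cstb-/- on the same arrays, at 0.90 to 1.05 against -0.09 to 0.11 in wild type. Its part in the oxidase values was not tested.

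In the other experiments the genotypes overlapped in all 4 oxidase probe sets. At P7 the 4 probe sets differed by -0.05 to 0.04 and in granule cells by -0.06 to 0.16, where no microglial marker passed. Of the other subunits of NADPH oxidases, 0 of 8 genes passed at P30; Ncf4 and Ncf1, cytosolic subunits of the same complex, differed by 0.29 and by 0.01 to 0.30 over 3 probe sets, and Nox4, the oxidase of kidney and vessels, by -0.25.

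**Figure D5:**
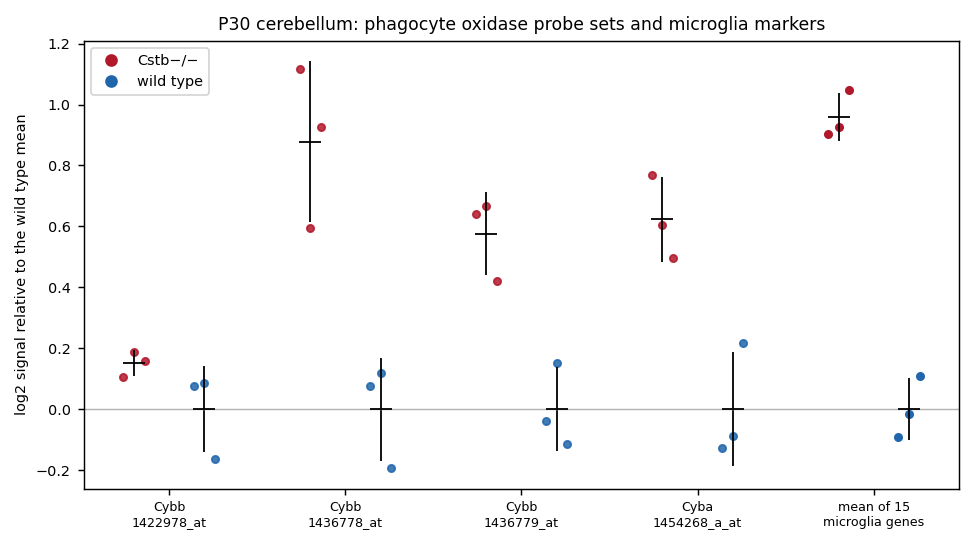
Log2 signal relative to the wild type mean (vertical axis) on each P30 array for the 3 Cybb probe sets, the Cyba probe set and the mean of 15 microglial marker genes, Cstb-/- in red left of wild type in blue, with the mean and SD as bars. The Cstb-/- arrays lie above the wild type arrays throughout, from 0.59 to 1.12 for Cybb 1436778_at and from 0.90 to 1.05 for the microglial mean.

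Other genes of the same pathways were read from 4 further lists. In granule cells, where 712 of all 18193 genes passed as higher and 70 as lower, 1 of 26 further Nrf2 partners and targets passed, the malic enzyme Me1, which supplies NADPH (0.52 and 0.84 over 2 probe sets). Of 23 further glutathione genes 3 passed, all higher, namely the transferases Gstk1 (1.27) and Gstt1 (0.83) and the gamma-glutamylcyclotransferase Ggct (1.05). None of 16 further thioredoxin and repair genes and none of 8 NADPH oxidase genes passed. The medians of these lists were 0.21, 0.17, 0.19 and -0.10, against 0.00 over all genes. In the cerebella none of these genes passed at either age.

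The difference between the genotypes was compared across the experiments with 1 contrast of the within-experiment differences. For P30 minus P7 no member passed (0.127% of all probe sets did), and the smallest adjusted p values were 0.0827 for Cybb (1436778_at, contrast 0.88) and 0.134 for Cyba (contrast 0.67), followed by 0.16 for Cat (0.62) and 0.241 for Nfe2l2 (0.68). For granule cells minus P7, a contrast added after the data were seen, 19 of the 81 member probe sets passed an adjusted p of 0.05 (23.5%, against 15.9% of all). Of these, 17 had a positive contrast and 2 a negative one. The contrast was 2.04 for Gpx8 (SE 0.24, adjusted p = 3.6e-05), 1.54 for Nfe2l2 (SE 0.24, adjusted p = 0.00052) and 1.05 for Cat (SE 0.17, adjusted p = 0.000665). In these probe sets of the 3 genes the Cstb-/- mean was lower than wild type at P7 and higher in granule cells. Contrasts larger than that of Cat were also found for Prdx4 (1416166_a_at, 1.51), Gpx7 (1.19) and Mgst1 (1415897_a_at, 1.17). The other Nfe2l2 probe set, 1457117_at, differed by 0.04 at P7 and 0.02 in granule cells. The median of the fibroblast markers was -0.18 at P7 and 0.87 in granule cells, and their part in the contrast was not tested.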

How the data were processed

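The deposited log2 values were made by the authors with RMA, which corrects background, equalizes the distributions of the arrays and combines the probes of a probe set (version not given in the sources used here). Each probe set was then centred by them on its median within an experiment. The table holds 45101 probe sets, of which 64 are controls and were dropped. Knockout was compared with wild type within each experiment by limma 3.58.1 (R 4.3.3) with Benjamini-Hochberg correction over 45037 probe sets, two-sided. A probe set passed at a fold of 1.3 and an adjusted p under 0.05 (cerebella) or 0.01 (granule cells). A member was represented by its lowest-numbered probe set. The values of every array are given for members that passed and for those with the smallest p, up to 8 an experiment, and any other member was named after its values were seen. The members and lists were chosen with earlier results of these data known. No filter on low signal could be set, since levels are not kept. The test was tried on simulated data. Separate mice or cultures stand behind the arrays only as far as the labels number them. Alternatives were other tests, thresholds, weights, covariates, blocks and probe set choices, and each array left out. Their number limits the precision. The labels do not say whether equal replicate numbers are littermates, so the main fits did not pair the arrays.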

Additional observations from a re-analysis of the deposited data

Results flagged for a closer look

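Of 27 groups of 4 arrays examined for a value far from the rest, 3 had one, where chance gives about 1 in 20. Nfe2l2 lay at -0.046 in P7 wild type array 1, against 0.01 to 0.02 in the other 3. Txnrd1 lay at -0.29 in P7 Cstb-/- array 5, against -0.11 to -0.09 in the others. Prdx4 (1416166_a_at) lay at -0.57 in granule cell wild type array 5, against 0.14 to 0.26 in the others.

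The genotype difference in granule cells was set against that at P7 by limma for 14 probe sets, which had been picked because they passed in granule cells or had the smallest p in either experiment. Their count is thus no independent support: 13 had a positive contrast at an adjusted p under 0.05, as against 19 of all 81 member probe sets and 15.9% of all probe sets with a contrast of either sign. The contrast was 2.04 for Gpx8, 1.54 for Nfe2l2 (1416543_at), 1.19 for Gpx7, 1.17 for Mgst1 (1415897_a_at), 1.05 for Cat (1416429_a_at), 0.95 for Gsta4, 0.92 for Mt1 (1422557_s_at) and 0.64 for Txnrd1 (1421529_a_at). It was 1.51, 0.83 and 0.73 for the Prdx4 probe sets 1416166_a_at, 1416167_at and 1435731_x_at, and 0.60 and 0.72 for the Gstm1 probe sets 1416416_x_at and 1448330_at.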

How the results depend on the processing

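No log2 difference of the 8 members picked by rule in each experiment changed its direction under the alternatives, but within the labelled sexes at P7 Gpx3 was -0.04 in females and Txnrd1 0.003 in males, each with the opposite sign to its difference over all arrays. At P7 no member probe set passed as fitted; the methods' t-test corrected over the probe sets past the fold gave 1 (Gpx8) and the labelled sex as a covariate 7, and leaving out 1 array gave 0 to 0. Leaving out Cstb-/- array 5 and wild type array 3 together, chosen after seeing the data, gave 0. At P30 the count was 0, but 3 with that t-test, with array weights and with 1 fit over all 6 groups, and 0 to 1 with 1 array left out. In granule cells the count of 9 became 17 at an adjusted p under 0.05, 0 with the methods' t-test over all probe sets, 6 with it over those past the fold, 16 with array weights and 19 with 1 fit over all 6 groups, and 1 to 15 with 1 array left out. For P30 minus P7 it was 0, but 1 with sex as a covariate (Cat), and 0 to 3 with 1 array left out (Cybb without P7 Cstb-/- array 5 or P30 Cstb-/- array 2, and Cyba, Mgst1 and Nfe2l2 without P30 wild type array 3).

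Over all probe sets the counts passed moved likewise. At P7 they were 3 as fitted, 203 with the t-test over those past the fold, 1 with it over all, 17 with array weights, 16 with 1 fit, 1108 with sex, 2 with the replicate block, 20 without both doubted arrays and 3 to 38 with 1 array left out. At P30 they were 65 as fitted, then 210, 1, 226, 107 and 29 under the same settings up to sex, 49 with the block and 29 to 76 with 1 array left out. In granule cells they were 1144 as fitted, then 628, 32, 2828 and 5725 under the same settings up to 1 fit, 4075 at an adjusted p under 0.05 and 302 to 2685 with 1 array left out. For P30 minus P7 the 57 became 134 with sex and 39 to 114 with 1 array left out. The cause was not tested. With the replicate number as a block 0 members passed at P7, at P30 and in the age contrast. Same-numbered arrays correlated at 0.01 to 0.17 at P7 and -0.18 to -0.03 at P30. With so few arrays this cannot show whether equal numbers were littermates, and the labels do not say. The number of arrays and the missing signal levels limit these results, since signal over background cannot be read.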
